A study of Mus musculus with 6 samples.

Results

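The expressed solute carrier genes were compared between mouse embryonic stem (ES) cells with and without the zinc-finger gene Zscan10. Solute carriers are membrane proteins that move amino acids, sugars, metals, nucleosides, lactate, ions and metabolites into cells, out of them, or across the membranes of organelles. They work as uniporters, exchangers or cotransporters, many of them driven by the sodium or proton gradient, and the Slc25 family forms the carriers of the mitochondrial inner membrane. ES cells, pluripotent cells grown from early embryos, divide fast and draw on glucose, glutamine and other amino acids from the medium. A locus was taken where a token of its gene symbol was Slc followed by a family number, the letter a and a member number, other than the zinc exporters Slc30a, and where its mean over the 6 libraries was at least 1 FPKM (fragments scaled to transcript length and library size). This gave 159 members of 331 solute carrier loci, among 23244 loci in all. The members were thus chosen by their mean FPKM, and not by the difference between the groups. The members fell into 26 amino acid carriers, 7 glucose carriers, 35 mitochondrial Slc25 carriers, 15 metal carriers and 76 others. These class counts include 5 loci that the symbol rule took but that are not transporter genes: the scaffold genes Slc9a3r1 and Slc9a3r2, Slc4a1ap, Slc7a6os and the pseudogene Slc2a4rg-ps.

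RNA was sequenced after removal of ribosomal RNA in 3 libraries of ES cells whose Zscan10 was floxed but undeleted (control) and in 3 libraries of ES cells subcloned after the loss of Zscan10 (null). The line was built with the inducible Cre-loxP system, and -Tx stands in the title of each control library but of no null library. Because the null cells were a subclone, genotype, clone and any treatment behind that mark cannot be told apart. Whether each library was a culture of its own is not stated in the labels, and p-values here measure the spread among libraries, which may be technical.

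FPKM summed to between 664555 and 699401 in a library, and the members held 0.548% to 0.589% of that sum. The steps between low values placed the libraries at 0.986 to 1.093 times the depth of control replicate 1, a rough total of 7.57e+06 to 8.39e+06 fragments each. At that depth a member rested on a mean of roughly 9.04 to 8240 fragments, with a median of 182. Zscan10 fell from 43.0 ± 1.14 to 5.13 ± 0.607 FPKM (SD, n = 3 each), and the ES markers Pou5f1, Sox2 and Nanog were high in both groups, at 538, 272 and 225 FPKM in control and 513, 268 and 248 FPKM in null libraries. Of 6 ES markers 0 rose and 2 fell, Zfp42 and Esrrb. Markers of other cell types were low but not level between the groups. The 10 fibroblast markers summed to 15.6 to 19.1 FPKM in control and 7.74 to 13.7 FPKM in null libraries, and 3 were tested. Of these 1 rose, Thy1, and 2 fell, Acta2 and Tagln, where 12.8% and 12.4% of all loci rose and fell. Below a mean of 1 FPKM, Col1a1 went from 0.738 to 0.0861 FPKM and Col1a2 from 1.13 to 0.0776 FPKM. Col3a1 was at 0.363 and 0.395 FPKM and Pdgfrb at 0.322 and 0.428 FPKM. Of the 10, 0 were at 0 in every library, although Lum was above 0 only in null replicate 2 and Postn was at 0 in all null libraries. The 10 extraembryonic endoderm markers summed to 29.9 to 32.3 FPKM in control and 10.1 to 15.2 FPKM in null libraries, 4 were tested, 0 rose and 2 fell. Lama1 alone held 23.01 to 24.6 FPKM of that sum in control and 5.76 to 8.96 FPKM in null libraries, and the other 9 markers summed to 6.91 to 7.88 FPKM and 4.34 to 6.23 FPKM. The part of both lists in the differences below was not tested, and in bulk RNA fewer cells of a type and less RNA per cell cannot be told apart.

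Of the 159 members, 15 were higher and 28 lower in null libraries at an adjusted p of at most 0.05 by limma. Those 43 calls are 27.0% of the members, near the 25.2% called among all 11480 loci tested. Split by direction, 9.43% of the members rose against 12.8% of all loci, and 17.6% fell against 12.4% of all loci. Set against loci of like FPKM, falls were in excess only in the most abundant of 3 equal parts of the members, as given below. The median log2 fold change, null minus control on the log2(FPKM + 1) scale used for every log2 value here, was -0.073 for the members and -0.003 for all loci (107 members lay below 0). For 78 members (49.1%) control and null values did not overlap, against 44.1% of all loci. Changes were small: the extremes were -0.92 for Slc38a1 and 0.87 for Slc25a20. With median centring the counts were 18 higher and 22 lower, and with equal library totals 19 higher and 22 lower, so the share of rises among the calls moved from 34.9% to 45.0% and 46.3%. The counts also depended on single libraries. They were 8 higher and 12 lower without control replicate 2, and the lower count was 17, 16 and 18 without control replicate 1, control replicate 3 and null replicate 2. In the same fits, in that order, 14.8%, 15.2%, 16.9% and 18.1% of all loci were called, against 25.2% with all libraries. A single gene in 3 against 3 libraries cannot reach an exact two-sided permutation p below 0.1, so the calls rest on limma's pooling of the spread across loci.

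**Figure D1:**
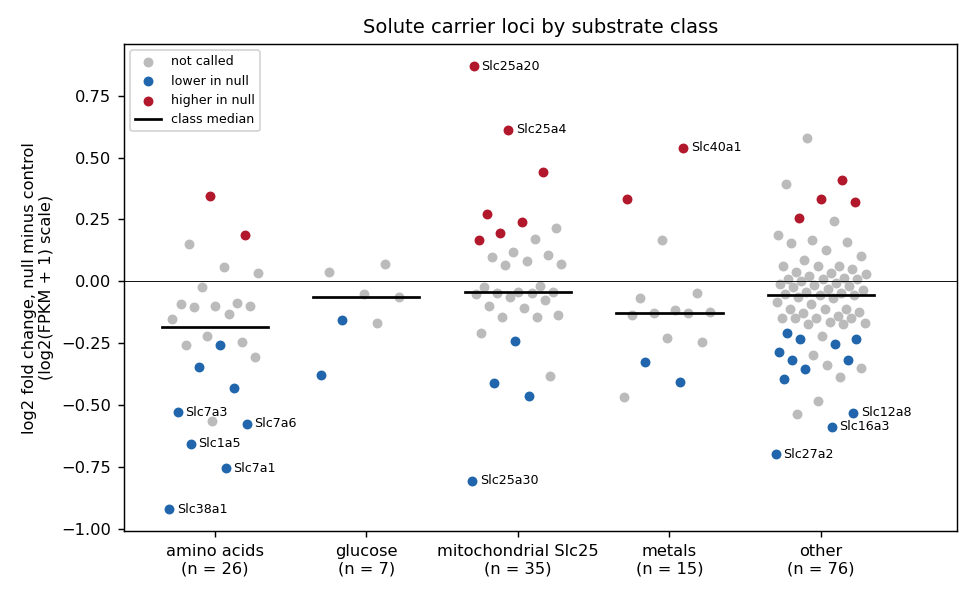
Log2 fold change of each of the 159 members (null minus control, log2(FPKM + 1) scale), by substrate class; each point is 1 locus, coloured by its call, and the black line is the class median. The amino acid class has 8 lower and 2 higher members, and the Slc25 class spans -0.80 for Slc25a30 to 0.87 for Slc25a20.

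Of the 43 calls, 18 were kept under each of the other ways of running the test that included the gene, 7 of them higher and 11 lower. All 15 such ways were run for 15 of these genes, 14 for Slc40a1 and Slc16a3 and 13 for Slc39a11, which drop out at a minimum of 5 FPKM or without chromosome 11. Median centring ended the calls of Slc7a1, Slc6a15, Slc2a4rg-ps, Slc2a1, Slc25a46 and Slc29a2, and equal library totals those of Slc7a1, Slc43a2, Slc6a15, Slc2a4rg-ps, Slc2a1 and Slc25a46. Where a loss is given below for libraries left out, other settings ended some of the same calls. Ratios between paralogs are given below without a test, since the pairs were chosen with their values known. Those higher were Slc25a20, Slc25a4, Slc25a40, Slc25a13, Slc25a5, Slc12a7 and Slc40a1. Those lower were Slc38a1, Slc1a5, Slc7a6, Slc25a30, Slc25a12, Slc27a2, Slc16a3, Slc16a1, Slc12a2, Slc44a1 and Slc39a11. Calls were more frequent among abundant members. With the members in 3 equal parts by mean FPKM, 6 of 53 were called in the lowest part, 12 of 53 in the middle and 25 of 53 in the highest. Over all loci within the same 3 ranges of FPKM, 19.2%, 23.8% and 29.3% were called. For the members these shares were 11.3%, 22.6% and 47.2%, a wider range than that of all loci. The cause of this gradient was not tested.

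Amino acid carriers held the lowest class median. Of 26 members 8 fell (30.8%, against 12.4% of all loci) and 2 rose (7.69%, against 12.8%). The median log2 fold change was -0.19, and 21 of the 26 lay below 0 (80.8%, against 50.7% of all loci). The summed FPKM of the class was 753 ± 4.06 in control and 666 ± 52.5 in null libraries. The null libraries were uneven, with sums of 726, 644 and 628 FPKM. Null replicate 1 was the nearest of the null libraries to the control mean for 16 of the 26 members, and for 4502 of all 11480 loci. In the metal class it was the nearest for 12 of 15 members. The number lower was 10 without null replicate 1, 3 without any one of the control libraries or without null replicate 3, and 5 without null replicate 2. The share of all loci called was 25.3% without null replicate 1 and 14.8% to 18.1% without each other library. Null replicate 1 lay nearest the controls in most of these same genes, so results without it add no support for a fall.

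The largest fall of the class was that of Slc38a1. Slc38a1 (chromosome 15, 96571418 to 96643438 in mm10), a system A carrier that brings glutamine and other neutral amino acids in with sodium, was at 28.8, 28.4 and 28.3 FPKM in the control libraries and at 16.5, 15.9 and 11.9 FPKM in the null libraries. Each null library was below each control library, and the mean fell to 0.517 of the control (log2 fold change -0.92, SE 0.11, adjusted p = 0.00183). Carriers of the same family that also lie on chromosome 15 did not pass. Slc38a2, the most abundant amino acid member, stood at 138 ± 0.520 and 142 ± 2.09 FPKM (adjusted p = 0.443), and Slc38a4 at 91.2 ± 3.33 and 85.9 ± 4.54 FPKM (adjusted p = 0.243). The ratio of Slc38a2 to Slc38a1 went from 4.85 ± 0.0292 to 9.81 ± 1.80.

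The neutral amino acid exchangers Slc1a5 and Slc1a4 fell together. Slc1a5, which exchanges glutamine for other neutral amino acids, was at 18.8, 17.3 and 15.5 FPKM in control and 12.3, 9.61 and 9.91 FPKM in null libraries (log2 fold change -0.65, SE 0.10, adjusted p = 0.00475). Slc1a4, a carrier of serine and alanine, fell from 13.9 ± 0.662 to 10.1 ± 1.71 FPKM (adjusted p = 0.0262). The Slc1a4 call was lost without any library other than null replicate 1, and under the replicate block, with adjusted p-values up to 0.0835. The glutamate carriers of the family did not pass. Slc1a1 was at 4.44, 3.73 and 4.36 FPKM in control libraries and at 4.51, 2.72 and 3.04 FPKM in null libraries (adjusted p = 0.267, and 0.0294 without null replicate 1), and Slc1a3 was at 4.10 and 3.78 FPKM (adjusted p = 0.547).

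The carriers of arginine and lysine were uneven between the null libraries. Slc7a3, the most abundant of them, was at 91.8, 91.7 and 88.3 FPKM in control libraries and at 79.0, 54.3 and 56.9 FPKM in null libraries (log2 fold change -0.53, SE 0.13, adjusted p = 0.0230). Slc7a1, the widely expressed carrier of the same substrates, was at 17.6, 18.05 and 16.6 FPKM in control libraries and at 15.6, 8.44 and 7.32 FPKM in null libraries (-0.75, SE 0.23, adjusted p = 0.0499). In both genes null replicate 1 lay near the controls and the other null libraries well below. Both calls were lost without any library other than null replicate 1, at adjusted p-values up to 0.138 for Slc7a1 and 0.0756 for Slc7a3, and that of Slc7a1 also with either rescaling of the libraries, without an FPKM minimum, without the variance trend and without chromosomes 11 and Y. Without null replicate 1 they were 8.07e-04 and 4.18e-04.

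Some Slc7 light chains act only as dimers with the heavy chain Slc3a2. Slc3a2 itself was at 119, 125 and 119 FPKM in control and 119, 106 and 102 FPKM in null libraries (adjusted p = 0.108). Slc7a5, its partner for large neutral amino acids such as leucine, was at 68.8, 70.7 and 67.2 FPKM against 69.2, 57.6 and 51.7 FPKM (adjusted p = 0.135). Null replicate 1 was again at the control level. Neither gene passed with all libraries, and the adjusted p-values without null replicate 1, 0.0113 and 0.00959, add no support for a fall. The y+L light chains, which exchange cationic against neutral amino acids, went in opposite directions. Slc7a6 (chromosome 8, 106168219 to 106198714) fell from 14.4, 13.5 and 15.1 to 9.68, 8.82 and 9.42 FPKM (-0.58, SE 0.06, adjusted p = 0.00136). Slc7a7 (chromosome 14, 54369442 to 54420068) rose from 46.9, 46.7 and 49.8 to 55.7, 54.3 and 53.6 FPKM (0.19, SE 0.04, adjusted p = 0.0162, lost without control replicate 1 or 2 at up to 0.0627). Their sum was 62.1 ± 2.45 and 63.8 ± 1.35 FPKM, while the ratio of Slc7a7 to Slc7a6 went from 3.33 ± 0.103 to 5.87 ± 0.247.

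Lower calls of smaller size came from Slc43a2, a facilitative carrier of large neutral amino acids, from 2.05 ± 0.0231 to 1.40 ± 0.213 FPKM (adjusted p = 0.0394), and Slc6a15, a sodium-coupled carrier of branched-chain amino acids and proline, from 8.91 ± 0.523 to 7.29 ± 0.557 FPKM (adjusted p = 0.0420). Slc7a14 rose from 2.27 ± 0.290 to 3.14 ± 0.255 FPKM (adjusted p = 0.0400). These calls were fragile: Slc6a15 lost its own without each of the 6 libraries in turn, Slc43a2 without any library other than null replicate 2, and Slc7a14 without control replicate 1 or 2 or null replicate 2 or 3, at adjusted p-values up to 0.134.

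**Figure D2:**
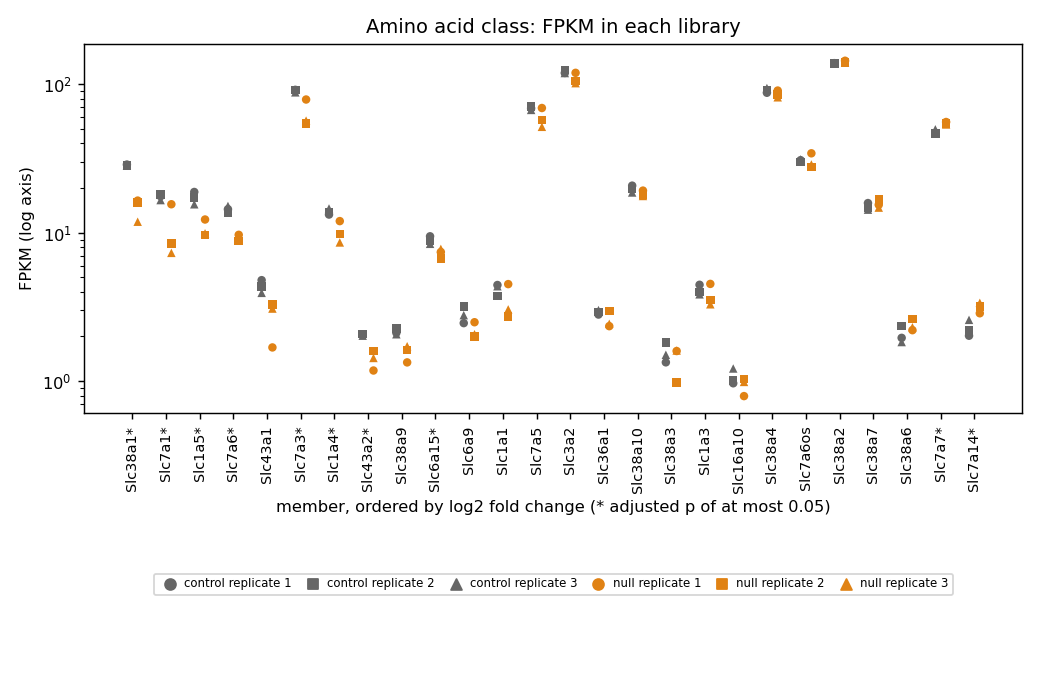
FPKM (log axis) of the 26 members of the amino acid class in each library, ordered by log2 fold change; grey marks are control and orange marks null libraries, with 1 shape per replicate number, and an asterisk marks an adjusted p of at most 0.05. For Slc7a1 null replicate 1 lies at 15.6 FPKM, near the controls, and the other null libraries at 8.44 and 7.32 FPKM.

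Genes of amino acid uptake often carry an amino acid response element, to which the transcription factor ATF4 binds, near their start. The core TGATGNAA was searched on both strands of RefSeq promoters (GRCm38.p6, the assembly of mm10, 250 bases before to 50 after each start). The windows below are shown because the 2 amino acid members that hold it went in opposite directions, Slc1a4 down and Slc7a7 up. Each is written along the gene's own strand, with the match in capitals, and Slc7a7 has more than 1 start in the table.
Slc1a4 (match on the other strand, from 4 bases before the start; chr11:20332704-20332747, minus strand): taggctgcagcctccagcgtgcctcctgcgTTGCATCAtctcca
Slc7a7 (match on the gene's strand, from 1 base before a start; chr14:54417935-54417975, minus strand): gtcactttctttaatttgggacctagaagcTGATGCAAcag
Slc7a7 (match on the gene's strand, from 141 bases before a start; chr14:54418048-54418115, minus strand): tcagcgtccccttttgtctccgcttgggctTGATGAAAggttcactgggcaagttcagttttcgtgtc
Of the 26 amino acid members 20 had a promoter in the table, and 2 of these (10%) held the core. Among the 8 that fell, 4 had a promoter, and 1, Slc1a4, held it. It was held by 4.51% of all 27025 genes with a promoter listed. These are matches of letters and not sites of binding.

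Mitochondrial Slc25 carriers moved both ways. Of 35 members 7 rose and 4 fell, 20% and 11.4% against 12.8% and 12.4% of all loci, and the class median was -0.042 (0.016 without null replicate 3). The number called went from 11 to 7 without control replicate 3 or null replicate 2, fits in which 16.9% and 18.1% of all loci were called, against 25.2%. The class held the members with the largest FPKM, and its sum was 1567 ± 24.9 FPKM in control (1592, 1543 and 1565) and 1822 ± 13.2 FPKM in null libraries (1837, 1813 and 1817). The groups did not overlap in this sum, but Slc25a4 and Slc25a5 carried most of the difference. Without them the sum of the other 33 members was 737 ± 11.2 FPKM in control and 778 ± 11.9 FPKM in null libraries, and 20 of the 35 members had a log2 fold change below 0.

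Slc25a20 (chromosome 9, 108662136 to 108684642), the carnitine-acylcarnitine carrier that brings long-chain fatty acids into the matrix for oxidation, had the largest rise of the 159 members. It was at 24.8, 25.9 and 25.0 FPKM in control libraries and at 45.3, 48.6 and 46.9 FPKM in null libraries, 1.86-fold higher by means (log2 fold change 0.87, SE 0.04, adjusted p = 6.66e-05). The replicates of each group lay close together and far from the other group. Slc25a4 (chromosome 8, 46207168 to 46211062), an ADP/ATP carrier that exports ATP from the matrix, was at 246, 244 and 242 FPKM in control libraries and at 387, 356 and 379 FPKM in null libraries, 1.53-fold higher (0.61, SE 0.04, adjusted p = 2.08e-04). Slc25a5, the other abundant ADP/ATP carrier, rose less, from 586 ± 15.5 to 670.3 ± 4.50 FPKM (0.20, SE 0.03, adjusted p = 0.00629). Slc25a5 has processed copies in the genome that can share reads, so its level is uncertain. The ratio of Slc25a5 to Slc25a4 was 2.40 ± 0.0650 in control and 1.79 ± 0.0681 in null libraries, and the pair summed to 830 ± 15.8 and 1044 ± 20.5 FPKM. The phosphate carrier Slc25a3, which also serves ATP synthesis, stood at 190 ± 8.81 and 199 ± 3.05 FPKM (adjusted p = 0.242).

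The aspartate-glutamate carriers of the malate-aspartate shuttle, which moves reducing equivalents into mitochondria, went in opposite directions. Slc25a12 (chromosome 2, 71274270 to 71367781) was at 22.3, 23.05 and 22.8 FPKM in control libraries and at 17.5, 17.4 and 15.7 FPKM in null libraries (-0.41, SE 0.05, adjusted p = 0.00253). Slc25a13 (chromosome 6, 6041218 to 6217304) was at 47.2, 47.5 and 49.4 FPKM in control libraries and at 56.7, 61.1 and 57.1 FPKM in null libraries (0.27, SE 0.04, adjusted p = 0.00500). Neither pair of groups overlapped. The ratio of Slc25a13 to Slc25a12 went from 2.11 ± 0.0534 to 3.46 ± 0.203, and the sum of both from 70.8 ± 1.32 to 75.2 ± 2.93 FPKM. The oxoglutarate-malate carrier Slc25a11, the other carrier of that shuttle, stood at 31.1 and 26.9 FPKM (adjusted p = 0.0965).

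Among smaller rises, Slc25a40, linked to glutathione import into mitochondria, went from 9.82, 8.88 and 11.4 to 13.5, 14.3 and 13.9 FPKM (0.44, SE 0.09, adjusted p = 0.0104). Its more abundant paralog Slc25a39 was at 107 ± 1.80 and 116 ± 5.70 FPKM and did not pass (adjusted p = 0.0822). Slc25a44, a carrier of branched-chain amino acids, rose from 8.69 ± 0.110 to 10.4 ± 0.816 FPKM (adjusted p = 0.0372), and the citrate carrier Slc25a1 from 45.6 ± 2.07 to 51.3 ± 1.07 FPKM (adjusted p = 0.0328). The Slc25a44 call was lost without any library other than null replicate 1, and the Slc25a1 call without any library other than control replicate 1, at adjusted p-values up to 0.108 and 0.0938. Both calls were also lost under the replicate block. That of Slc25a44 was lost without an FPKM minimum too, and that of Slc25a1 with quantile normalization and without the variance trend.

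The largest Slc25 fall was that of Slc25a30 (chromosome 14, 75757534 to 75787037), a member of the uncoupling protein branch. It was at 8.95, 8.95 and 7.62 FPKM in control libraries and at 4.46, 4.53 and 4.32 FPKM in null libraries, 0.521 of the control mean (-0.80, SE 0.08, adjusted p = 9.08e-04). Slc25a27, of the same branch, fell from 1.38 ± 0.270 to 0.726 ± 0.148 FPKM (adjusted p = 0.0331). It lies near the minimum and passed it through the control group, it rested on roughly 24.1 fragments a library, and its call was lost without control replicate 2 or 3 or null replicate 1 or 2, at adjusted p-values up to 0.0938. Slc25a14, also of that branch, was at 3.29 and 3.81 FPKM (adjusted p = 0.226). Slc25a46, an outer-membrane protein of mitochondrial shape, fell from 14.95 ± 1.39 to 12.5 ± 0.275 FPKM (adjusted p = 0.0434, lost without any library other than control replicate 2, at up to 0.107).

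**Figure D3:**
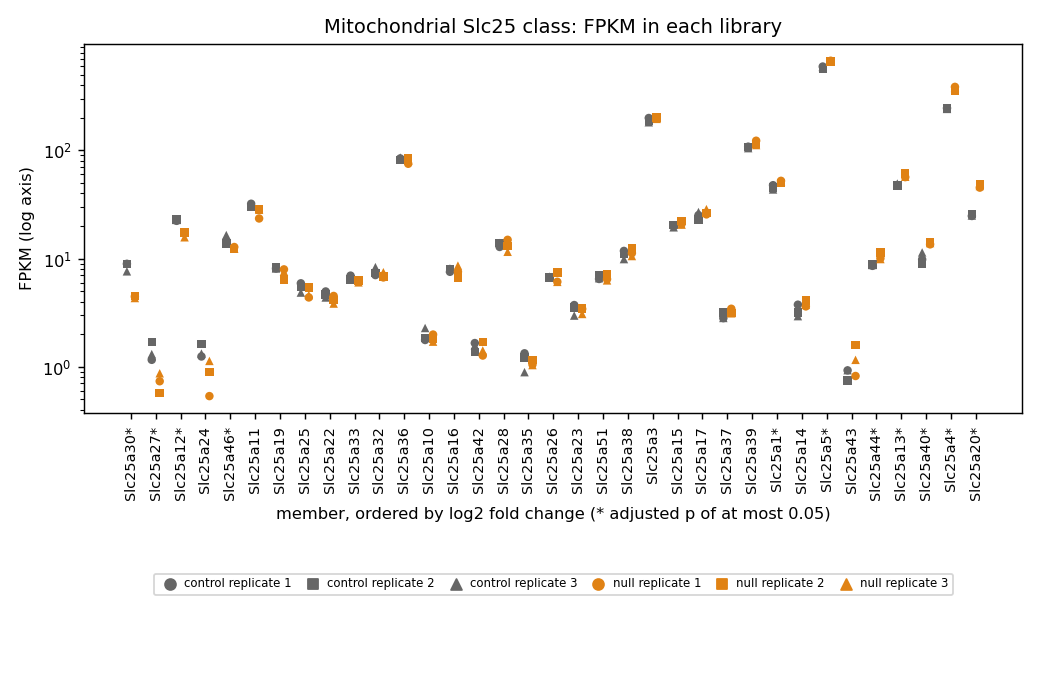
FPKM (log axis) of the 35 mitochondrial Slc25 members in each library, ordered by log2 fold change; grey marks are control and orange marks null libraries, with 1 shape per replicate number, and an asterisk marks an adjusted p of at most 0.05. Slc25a20 and Slc25a4, at the right end, separate the groups most clearly among the rises, with control means of 25.2 and 244 FPKM and null means of 46.9 and 374 FPKM.

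Of the 7 loci of the glucose class, which include the pseudogene Slc2a4rg-ps, 0 rose and 2 fell, 28.6% called against 25.2% of all loci. The class sum was 437 ± 11.1 FPKM in control and 411 ± 16.8 FPKM in null libraries. Slc2a3, the high-affinity glucose carrier and the most abundant glucose member, was at 274, 270.2 and 260.5 FPKM in control libraries and at 267, 272 and 240 FPKM in null libraries (-0.05, SE 0.05, adjusted p = 0.526). Slc2a1, the widely expressed glucose carrier, was at 149, 147 and 142 FPKM in control libraries and at 135, 126 and 133 FPKM in null libraries (-0.16, SE 0.04, adjusted p = 0.0286). Its groups did not overlap, but the call was lost with median centring, with equal library totals, under the replicate block and without the variance trend. It was also lost without control replicate 1 or 2 or null replicate 2 or 3, at adjusted p-values up to 0.0960. The other call was the pseudogene Slc2a4rg-ps, from 2.20 to 1.47 FPKM (adjusted p = 0.0453), lost without any library other than null replicate 2, so both calls ended without control replicate 1, control replicate 2 or null replicate 3. The ratio of Slc2a3 to Slc2a1 was 1.84 ± 0.00131 and 1.99 ± 0.180.

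Metal carriers had 2 rises and 2 falls among 15 members (26.7% called, near the 25.2% of all loci), with a median of -0.13. Slc40a1, the iron exporter ferroportin, rose from 1.55, 1.35 and 1.44 to 2.33, 2.69 and 2.64 FPKM, 1.77-fold by means (0.54, SE 0.09, adjusted p = 0.00565), on roughly 53.1 fragments a library. The zinc importer Slc39a4 rose from 12.4, 12.03 and 9.53 to 14.01, 14.2 and 15.1 FPKM (0.33, SE 0.10, adjusted p = 0.0409), and this call was lost without any library other than control replicate 1, at up to 0.117. It was also lost without an FPKM minimum, without the variance trend and under the replicate block. Of the falls, the zinc carrier Slc39a11 went from 4.97, 4.87 and 4.27 to 3.37, 3.11 and 3.41 FPKM (-0.41, SE 0.08, adjusted p = 0.0114). The copper importer Slc31a1 went from 13.3, 15.6 and 14.6 to 11.9, 10.8 and 11.3 FPKM (-0.33, SE 0.07, adjusted p = 0.0164). This call was lost under the replicate block and without control replicate 2 or 3 or null replicate 2, at up to 0.0600. The most abundant metal members, the zinc carriers Slc39a10 and Slc39a7, were at 43.7 and 49.2 FPKM (adjusted p = 0.0666) and at 41.9 and 38.2 FPKM (adjusted p = 0.0783). The number of metal members called was 7 without null replicate 1 and 2 without control replicate 2, control replicate 3 or null replicate 2. In the same fits 25.3%, 14.8%, 16.9% and 18.1% of all loci were called.

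**Figure D4:**
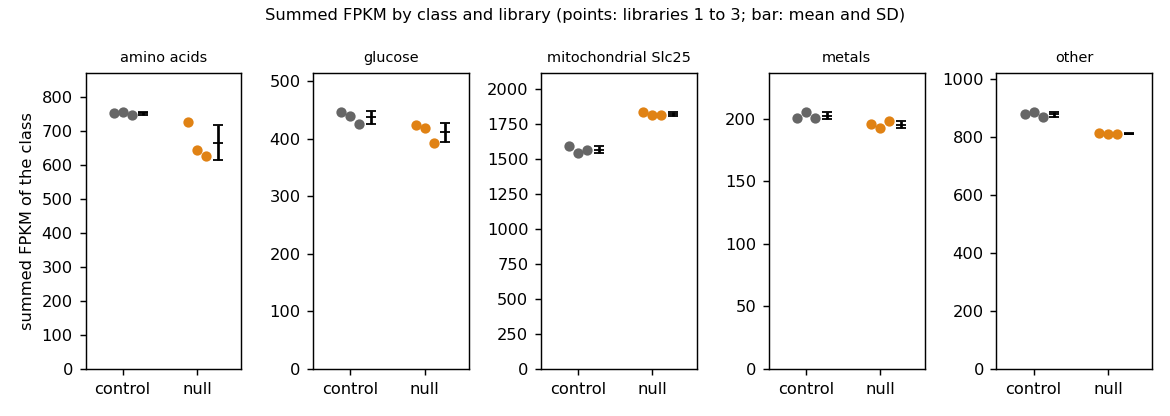
Summed FPKM of the members of each class in each library, with the mean and SD of 3 libraries beside the points; each axis starts at 0. The Slc25 sum is higher in each null library (1813 to 1837) than in each control library (1543 to 1592), and the amino acid sum of null replicate 1 (726) lies nearest the controls.

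The 76 other members held 12 falls (15.8%, against 12.4% of all loci) and 4 rises (5.26%, against 12.8%), with a median of -0.055. The number called went from 16 to 7 without control replicate 2, where the share of all loci called went from 25.2% to 14.8%. Their sum was 877 ± 8.75 FPKM in control and 810 ± 2.54 FPKM in null libraries. The largest fall was that of Slc27a2 (chromosome 2, 126553024 to 126588243), a fatty acid transport protein that also activates very long-chain fatty acids. It was at 31.96, 32.9 and 29.05 FPKM in control libraries and at 21.4, 17.7 and 17.8 FPKM in null libraries (-0.70, SE 0.08, adjusted p = 0.00176). The other tested members of that family, Slc27a1, Slc27a3 and Slc27a4, stayed above the threshold, at log2 differences of 0.050, 0.012 and 0.0090 and adjusted p-values of 0.711, 0.944 and 0.920.

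Of 5 monocarboxylate carriers 2 fell (40%, against 12.4% of all loci), both of them lactate carriers. Slc16a3 lies on chromosome 11, where 27.7% of the loci tested fell. Slc16a3, the carrier known for lactate export from glycolytic cells, was at 29.1, 31.9 and 24.05 FPKM in control libraries and at 20.4, 16.7 and 18.4 FPKM in null libraries (-0.59, SE 0.11, adjusted p = 0.00916). Slc16a1, the widely expressed carrier of lactate and pyruvate, fell from 37.4, 36.6 and 39.1 to 30.7, 33.5 and 31.6 FPKM (-0.23, SE 0.05, adjusted p = 0.0136). The groups did not overlap in either gene. Their accessory proteins Bsg and Emb, which bring these carriers to the plasma membrane, stood at 166 and 170.4 FPKM (adjusted p = 0.421) and at 56.1 and 58.4 FPKM (adjusted p = 0.596).

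Cation-chloride cotransporters set cell volume and chloride. The inward carrier Slc12a2 fell from 22.4, 23.01 and 23.1 to 17.3, 17.9 and 17.7 FPKM (-0.35, SE 0.04, adjusted p = 0.00183). Slc12a7, an outward potassium-chloride carrier, rose from 24.6, 25.5 and 23.8 to 32.8, 31.6 and 29.4 FPKM (0.33, SE 0.05, adjusted p = 0.00497). The groups did not overlap in either gene. Slc12a8 fell from 5.68 ± 0.417 to 3.66 ± 0.738 FPKM (adjusted p = 0.0181, lost without control replicate 1 or 2 or null replicate 2 at up to 0.0667).

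Of 3 choline transporter-like genes 1 fell, 1 rose and Slc44a4 did not pass, at 2.001 and 2.02 FPKM (adjusted p = 0.980). Among all loci 12.4% fell and 12.8% rose. Slc44a1, which carries choline for phospholipid synthesis, fell from 22.9, 21.0 and 22.9 to 17.9, 18.5 and 16.7 FPKM (-0.32, SE 0.06, adjusted p = 0.00826). Slc44a2 rose from 6.85, 8.04 and 7.17 to 9.07, 11.01 and 10.2 FPKM (0.41, SE 0.09, adjusted p = 0.0149, lost without control replicate 1 or 3 at up to 0.0571). The ratio of Slc44a1 to Slc44a2 was 3.05 ± 0.390 in control and 1.76 ± 0.180 in null libraries.

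Further falls were those of Slc29a1 and Slc29a2, equilibrative nucleoside carriers, Slc23a2, a vitamin C carrier, Slc6a6, the taurine carrier, and Slc9a5, a sodium-proton exchanger. Slc29a1, the most abundant member of the class, went from 97.2 ± 3.35 to 82.8 ± 5.91 FPKM (adjusted p = 0.0237), and Slc6a6 from 36.7 ± 0.906 to 31.6 ± 1.17 FPKM (adjusted p = 0.0148). Slc23a2 went from 16.3 to 13.5 FPKM, Slc29a2 from 6.11 to 4.82 FPKM and Slc9a5 from 2.78 to 1.88 FPKM, at adjusted p-values of 0.0229, 0.0385 and 0.0384. Each of these 5 calls was lost without control replicate 2, and those of Slc29a1, Slc29a2, Slc23a2 and Slc9a5 also without null replicate 2, at adjusted p-values up to 0.119. Control replicate 1 also ended the calls of Slc29a1 and Slc9a5 when left out, control replicate 3 those of Slc29a2 and Slc23a2, null replicate 1 that of Slc29a2 and null replicate 3 those of Slc29a1, Slc29a2 and Slc9a5. The other rises were Slc24a6, the mitochondrial sodium-calcium exchanger, from 10.3 ± 0.639 to 13.1 ± 0.753 FPKM (adjusted p = 0.0136, lost without control replicate 2 at 0.0535), and the scaffold gene Slc9a3r1, from 25.5 ± 1.64 to 30.6 ± 0.964 FPKM (adjusted p = 0.0160, lost without control replicate 2 or 3 or null replicate 3 at up to 0.0570). Slc20a1, a phosphate carrier and the second most abundant of the class, stood at 69.4 and 63.4 FPKM (adjusted p = 0.0854). The locus that holds Slc5a3 also holds Mrps6, so its means of 12.03 and 12.05 FPKM belong to both genes.

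**Figure D5:**
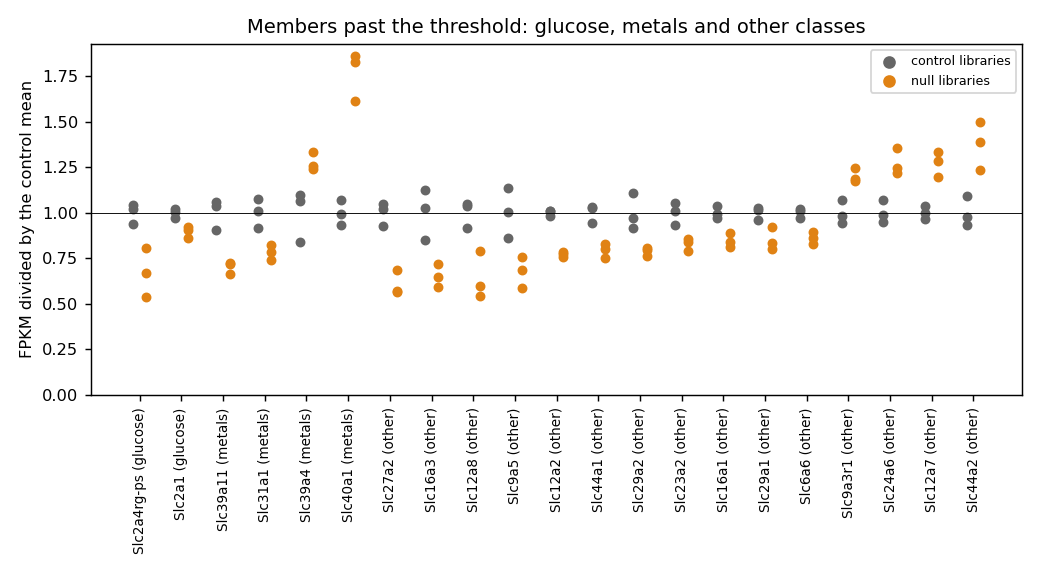
FPKM of the called members of the glucose, metal and other classes that are described in the text, divided by the control mean of each gene; grey points are the 3 control and orange points the 3 null libraries. Slc40a1 lies highest, with a null mean 1.77 times the control mean, and Slc27a2 has a null mean 0.606 times the control mean.

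Chromosome position was looked at because loci of chromosome 11 were lower as a group. Of 939 loci tested on chromosome 11, 27.7% fell and 5.96% rose, with a median of -0.12. The 18 members there held 4 falls (Slc1a4, Slc43a2, Slc39a11 and Slc16a3) and 1 rise (Slc9a3r1), with a median of -0.15. The 141 members elsewhere held 24 falls and 14 rises, with a median of -0.062. When chromosomes 11 and Y were left out of the test, 23 of the 141 members fell and 14 rose. In that fit 23.9% of all 10536 loci were called, against 25.2% with those chromosomes.

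The members were also compared by the spread between libraries. The SD of log2(FPKM + 1) was larger among null than among control libraries for 64.2% of the members and 59.2% of all loci. In the amino acid class this share was 76.9%, with median SDs of 0.067 in control and 0.12 in null libraries, and in the Slc25 class it was 54.3%, with 0.066 and 0.075. It was larger still in the glucose class (85.7%) and the metal class (80%), and 59.2% in the other class.

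Carriers and accessory proteins outside the symbol rule were read from a list of 47 genes, of which 44 were found and 30 tested. Of these 30 genes 6 rose and 3 fell, with a median of 0.059. Of all loci 12.8% rose and 12.4% fell, with a median of -0.003. Mpc1, a subunit of the mitochondrial pyruvate carrier, had the largest change, from 21.8, 21.6 and 20.5 to 36.7, 31.7 and 37.4 FPKM (0.70, SE 0.07, adjusted p = 9.46e-04). Its partner Mpc2 was at 8.84 ± 2.17 and 11.7 ± 1.10 FPKM and did not pass (adjusted p = 0.109). Mfsd10 rose from 26.8 ± 2.30 to 35.8 ± 0.661 FPKM (adjusted p = 0.00424), the sideroflexin Sfxn2 rose from 2.36 ± 0.172 to 3.45 ± 0.394 FPKM (adjusted p = 0.0202), and Ctns, the lysosomal cystine exporter, fell from 8.44 ± 0.844 to 6.46 ± 0.5001 FPKM (adjusted p = 0.0278). The number of these genes called was 4 without null replicate 3 and 5 without control replicate 1 or 2, fits in which 17.2%, 15.2% and 14.8% of all loci were called.

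Nearest above the minimum of 1 FPKM were Slc16a10, an aromatic amino acid carrier, at 1.07 in control and 0.937 in null libraries, and the zinc carrier Slc39a3, at 1.19 and 0.854. Nearest below it were the vesicular monoamine carriers Slc18a2, at 1.11 and 0.856, and Slc18a1, at 1.001 and 0.961. In all, 6 members reached 1 FPKM in the mean of only 1 group. Without them 15 of 153 members rose and 27 fell, 27.5% called, near the 25.2% of all loci.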

How the data were processed

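The members, classes and lists were chosen with earlier results of these data known. Each deposited file gives a locus 1 value, taken to be FPKM computed by the authors; this was judged from the values, since no label or header states the unit. Per the submitters' processing notes, Trim Galore, FastQC, TopHat, Cuffdiff and mm10 were used; their versions and roles, strand and library scaling: not given in the sources used here, so overlapping genes may share fragments. Loci were placed on GRCm38.p6 by RefSeq accession or symbol (159 of 159 members). The test was limma 3.58.1 in R 4.3.3 with a variance trend, on log2(FPKM + 1) of the 11480 loci whose mean reached 1 FPKM, with Benjamini-Hochberg adjustment and a threshold of 0.05. Folds are ratios of means without a pseudocount. On simulated data (5 runs, 11480 genes, 200 changed), the test recovered 37.2% of genes changed 1.25-fold, 67.2% of those changed 1.5-fold and 94% of those changed 2-fold. The simulated folds were set on the log2(FPKM + 1) scale, and 2894 loci were called in the data, far more than the 200 changed there. These rates therefore cannot be taken as those of the main test. Depth was read from values below 0.15 FPKM, 77.8% of which were whole multiples of the lowest within 1%; lengths came from GENCODE M21. Named were, per class, the 5 largest rises and 5 largest falls among calls and the 2 most abundant members, the loci beside the minimum, Slc3a2, Slc7a5, Slc7a6, Slc7a11, Slc2a1, Slc2a3, the 4 largest related changes, Zscan10 and ES markers. Genes named after their values were seen are Slc38a4, Slc1a4, Slc1a1, Slc1a3, Slc43a2, Slc6a15, Slc25a1, Slc25a3, Slc25a11, Slc25a14, Slc25a39, Slc27a1, Slc27a3, Slc27a4, Slc16a1, Slc44a1, Slc44a4, Slc29a2, Slc23a2, Slc6a6, Slc5a3, Bsg, Emb, Mpc2 and those of the closing observations. Protein sequences were not used here. The values of 1 called member of the other class are not reported here, although the counts include it.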

Additional observations from a re-analysis of the deposited data

How the results depend on the processing

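The 15 alternatives changed the pseudocount, the FPKM minimum, the scaling, the variance trend, a replicate block, chromosomes 11 and Y, and each library in turn; for 42 named members they gave 514 values with the same call, 94 with a call lost and 10 with a call gained, and 0 called values changed sign. Same-numbered control and null libraries deviated together with correlations of -0.002, 0.108 and 0.053, so the numbers were not taken as pairs. With the replicate block 13 members rose and 18 fell, with 7 Slc25, 0 glucose and 7 amino acid members called. In that fit 19.7% of all loci were called, against 25.2% in the main test. The amino acid count was 6 without an FPKM minimum. The glucose count was 1 with a pseudocount of 0.1, without a minimum, with a minimum of 5 FPKM, with quantile normalization and without the trend, and 0 with median centring and equal totals. The metal count was 2 with the minimum of 5 FPKM. Of all loci, 13.9% were called without a minimum, 27.8% with the minimum of 5 FPKM and 25.1% with the pseudocount of 0.1. The share was 23.5% with quantile normalization, 23.2% without the trend, 25.5% with median centring and 26% with equal totals. The median of the members was -0.090 with a pseudocount of 0.1, -0.051 with median centring and -0.036 with equal totals, which shifted the median of all loci to 0.019 and 0.034; that of the other class was -0.020 with equal totals. Leaving out single libraries, where fewer samples remain, gave 8 to 15 members higher, 12 to 30 lower, 3 to 12 amino acid, 0 to 1 glucose, 7 to 9 Slc25, 2 to 7 metal and 7 to 17 other calls, 4 to 8 related genes and 1697 to 2903 loci in all. Their medians ran from -0.092 to -0.074 for the members, and from -0.048 to 0.016 for the Slc25 class, which reversed to 0.016 without null replicate 3. Depth limits members of low FPKM: 26 rested on fewer than 50 fragments a library, a rough estimate.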

Other observations

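Solute carrier loci below the mean of 1 FPKM were outside the main comparison. Of these 172 loci 146 had a value above 0, and in a limma fit over all 18476 loci above 0, where 13.9% were called, 2 rose and 6 fell. The plasma membrane citrate carrier Slc13a5 was at 0.743, 0.753 and 0.706 FPKM in control libraries and at 0.277, 0.0358 and 0.117 FPKM in null libraries (limma adjusted p = 0.00622). Slc39a8, a carrier of zinc and manganese, was at 0.818, 0.822 and 0.844 FPKM in control libraries and at 0.328, 0 and 0.0390 FPKM in null libraries (adjusted p = 0.00872). The cystine-glutamate exchanger Slc7a11, another light chain of Slc3a2, fell from 0.531 ± 0.0930 to 0.267 ± 0.0627 FPKM (adjusted p = 0.0469). These values rest on few fragments. Slc13a5 lies on chromosome 11, where loci were lower as a group.

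Slc23a1, a vitamin C carrier of the main set, was at 1.79, 1.88 and 1.501 FPKM in control libraries and at 1.99, 3.67 and 3.80 FPKM in null libraries, where replicate 1 again lay nearest the controls (limma adjusted p = 0.0573). Its relative Slc23a2 fell. Slc43a1, a carrier of large neutral amino acids, differed most in null replicate 1, at 1.69 FPKM there and at 3.29 and 3.08 FPKM in null replicates 2 and 3, against 4.79, 4.34 and 3.93 FPKM in control (adjusted p = 0.0556).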
